A study of Mus musculus with 2 samples.

Results

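FAM120A binds RNA and is found with Argonaute 2, the protein that carries microRNAs to their targets. The RNA it contacts was mapped in mouse embryonic stem cells by iCLIP, a form of crosslinking and immunoprecipitation that places contacts to the nucleotide. The clusters described here are those that the authors named region B alone, in the list of the tagged library, with no other cluster of that list within 1000 nt on the same strand. This rule kept 2860 of the 5730 tagged-list clusters named by region B alone, of 11670 tagged-list clusters in all and of 12804 clusters in both lists. What the letter B stands for is not stated. The clusters were thus chosen by their names and positions in a list that the authors had selected on tagged reads above untagged reads, so the ratios between the libraries are given below as descriptions only.

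Both cell lines carried a Fam120a transgene delivered by the pSLIK lentivirus and induced with doxycycline at 2.5 µg/mL. In the line TT-FHFam120a the protein bore FLAG and HA epitopes, and in the line TT-Fam120a it had none. The FLAG and HA immunoprecipitations of the untagged line therefore measured what was recovered without the epitopes. Each line gave 1 library, and the labels do not say whether a line was 1 clone or what its own Fam120a gene did. Gene names and sequences are not given for the clusters, because no genome or annotation of the files' build (mm9) was used here. For the same reason the stem cell label was not checked against marker genes.

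In iCLIP, ultraviolet light joins a protein to the RNA it touches, and reverse transcription of the recovered fragment often stops at the joined nucleotide. Reads of a site can thus share an end at or beside the point of contact. Proteins that sit at many places along a transcript give several groups of reads near each other, while a group of reads far from any other rests on that 1 place alone. A library from cells without the epitope shows which RNA stays on the beads regardless of the tagged protein.

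The isolated region B clusters were small and scattered. They held 58248 tagged reads in all, with a median of 8 reads per cluster (95% interval 7 to 8) and a range of 5 to 468. Of the 2860, 882 (30.8%, Wilson 95% interval 29.2 to 32.6) held exactly 5 reads, the lowest count listed, and 676 (23.6%, interval 22.1 to 25.2) held 20 or more. Reads were unevenly divided: the 95 clusters of 100 or more reads were 3.32% of the clusters and held 29.3% of the reads, while the 882 clusters of 5 reads held 7.57%. All but 17 were 26 nt long, the longest had 51 nt, and 33 carried more than 1 region B name. Small size and this length were not particular to isolated clusters. Region B clusters with near neighbours had a median of 6 reads, with 43.5% at exactly 5, 3.62% at 20 or more and 96.8% of 26 nt. Clusters named region C2 had a median of 11 reads, with 8.43% at exactly 5, 23.1% at 20 or more and 69.3% of 26 nt. All intervals here count reads or clusters as independent, which PCR copies need not be, and so cover counting error alone.

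The clusters lay far from one another on the genome. The median gap to the nearest tagged-list cluster on the strand was 298039 nt (282162 to 312341) over the 2859 clusters with another on their strand. The remaining 1 was the lone isolated cluster of chromosome Y, at positions 1166185 to 1166210 on the plus strand, with 5 tagged and 0 untagged reads. A gap of over 200000 nt separated 1717 of them (60%, interval 58.2 to 61.8) from the nearest cluster, and one of over 1000000 nt separated 520 (18.2%). For 1737 of the 2859 (60.8%) the nearest tagged-list cluster was itself an isolated region B cluster. In the untagged list, which held 1134 clusters, the median gap of region B clusters was 1367420 nt. These distances describe a set selected on distance and were compared with no expected spacing.

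Some of them lay near loci of several clusters. Within 5000 nt on the strand, 161 (5.63%, interval 4.84 to 6.54) had another tagged-list cluster. For 82 of these 161 it belonged to a locus of several clusters, meaning clusters joined by gaps of at most 1000 nt, and for 11 to a locus of 10 or more. Of all tagged-list clusters, 72.1% lay in loci of several clusters and 31.2% in loci of 10 or more. Of the 82, 40 lay upstream and 42 downstream of the locus in the direction of the strand, so neither side was favoured beyond counting error. On the opposite strand, 36 of the 2860 (1.26%, interval 0.911 to 1.74) had a tagged-list cluster at a gap of over 1000 and up to 5000 nt, the same range of gaps, and 6 more had one within 1000 nt. In that range of gaps same-strand neighbours (161) thus outnumbered opposite-strand neighbours (36). Within 1000 nt the rule allowed no same-strand neighbour, so the strands cannot be compared there.

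All 20 nuclear chromosomes other than Y contributed, from 81 clusters on chromosome 19 to 227 on chromosome 2. As a share of a chromosome's tagged-list clusters they ran from 16.3% on chromosome 11 (interval 14.2 to 18.6) to 33.2% on chromosome 12 (28.4 to 38.5). Chromosome 11 and chromosome 1, where the share was 18%, had the most tagged-list clusters. On the mitochondrial chromosome 0 of 55 tagged-list clusters were isolated region B. By counting alone the upper limit would be 5.45% at 3 counts of 55, or 6.53% by Wilson. Where clusters lie close together the distance rule itself can leave none, so this 0 is no estimate of a share. Over the 20 chromosomes, the number of isolated region B clusters correlated with the number of region B clusters in the untagged list at r = 0.83 (Spearman's rho 0.78). It correlated with the number of all other tagged-list clusters at r = 0.70 (rho 0.76). These are descriptions over chromosomes that share their length and content, and the correlations were not compared by a test. By strand, 1389 (48.6%, interval 46.7 to 50.4) lay on plus.

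At this read depth most isolated clusters had no measured fold over the untagged library. The untagged library had 0 reads at 1653 of the 2860 (57.8%, interval 56 to 59.6), of which 1496 were the clusters of 8 or fewer reads. A cluster that small could be listed only against 0 untagged reads, so its listed ratio follows from its own count. The lack of a measured fold was not particular to isolated clusters, and was more common in the other tagged-list groups over all read counts. The untagged library had 0 reads at 2630 of 2870 region B clusters with near neighbours (91.6%) and 3081 of 4897 region C2 clusters (62.9%). For clusters named by several region classes it had 0 reads at 623 of 865. The listed log2 ratio compares tagged reads with untagged reads scaled by a factor, with 1 added to each, and 5 reads against 0 give 2.58, which was also the median of all isolated region B clusters. From 20 reads upward the share with 0 untagged reads was 10 of 676 (1.48%, interval 0.805 to 2.70), and the median log2 ratio was 1.07 (1 to 1.14). The same share among tagged-list region B clusters with near neighbours of 20 or more reads was 31.7% (33 of 104), and among clusters named region C2 it was 22.6%.

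**Figure D1:**
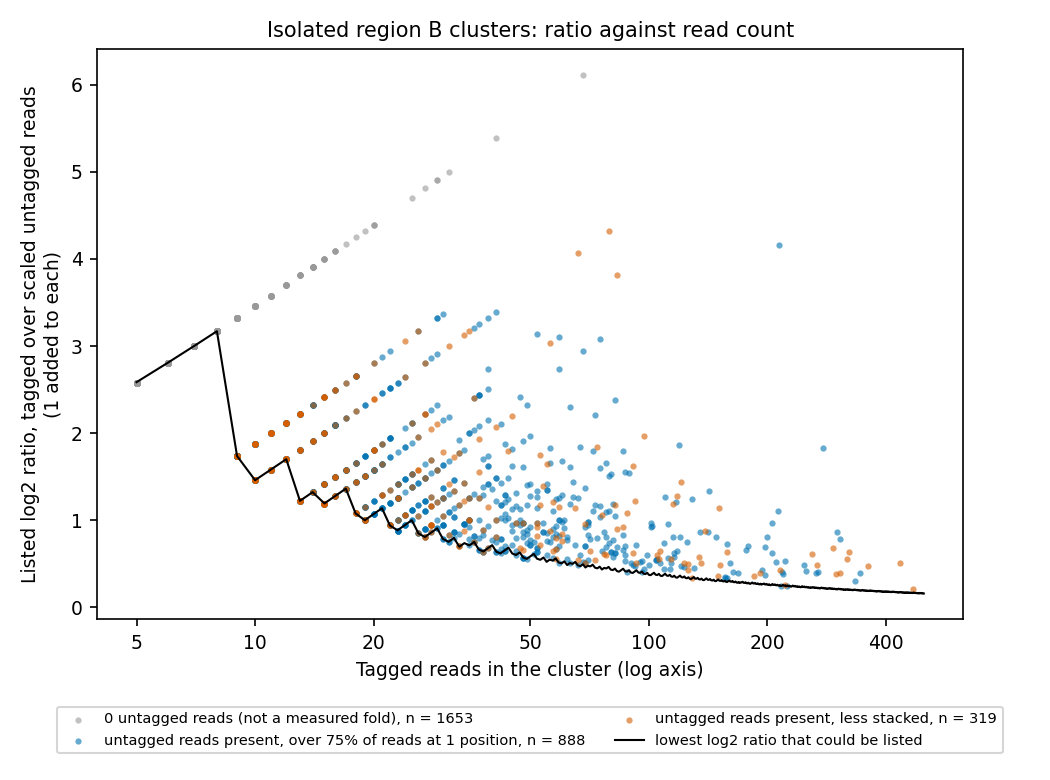
Each point is 1 of the 2860 isolated region B clusters, by tagged reads (log axis) and listed log2 ratio of tagged over scaled untagged reads with 1 added to each. The 1653 grey points had 0 untagged reads and lie on a curve set by their own reads, while the 1207 coloured points gather above the black line, the lowest ratio that could be listed at that read count.

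Of the 2860 isolated clusters, 445 had a listed log2 ratio of 3 or more (15.6%, interval 14.3 to 16.9), where over all tagged-list clusters 38.7% reached it. Among clusters of 20 or more reads, where 46.3% of the list reached it, 31 of 676 isolated clusters did (4.59%, interval 3.25 to 6.44). In a one-sided exact binomial test of unscaled reads that allowed for the depth factor, 1754 of the 2860 (61.3%, interval 59.5 to 63.1) stayed under a p of 0.05, against 74% of the whole list, and 596 of 676 (88.2%) at 20 or more reads, against 95.2%. That test compares these 2 libraries and not the conditions, and the authors had selected the list on the same contrast. Up to 8 reads its outcome was fixed by the read count: 5 reads against 0 gave a p of 0.078, and 6 against 0 gave 0.047. All 882 isolated clusters of 5 reads therefore failed, and all 614 of 6 to 8 reads passed. Clusters of exactly 5 reads were 30.8% of isolated, 43.5% of near-neighbour region B and 8.43% of region C2 clusters. The shares over all read counts thus partly restate these counts.

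The ratio of isolated region B clusters fell as reads increased, along the limit of the listing. Their median log2 ratio was 1.87 at 9 to 14 reads (n = 493), 1.35 (1.26 to 1.47) at 20 to 29 reads (n = 219), 1.09 (1 to 1.24) at 30 to 49 (n = 196), 0.91 (0.81 to 0.98) at 50 to 99 (n = 166) and 0.55 (0.51 to 0.62) at 100 or more (n = 95). The lowest log2 ratio that could pass the authors' threshold fell as well, from 1.07 at 20 reads to 0.58 at 50 and 0.37 at 100. Of the 676 isolated clusters of 20 or more reads, 392 (58.0%, interval 54.2 to 61.7) lay less than 0.5 above that limit, and the median distance above it was 0.38 (0.34 to 0.41). Region C2 clusters of 20 or more reads lay a median of 2.75 (2.64 to 2.81) above the same limit, with 7.41% closer than 0.5. Region B clusters with near neighbours lay a median of 2.41 (2.17 to 3.32) above it, with 1 of 104 closer than 0.5.

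**Figure D2:**
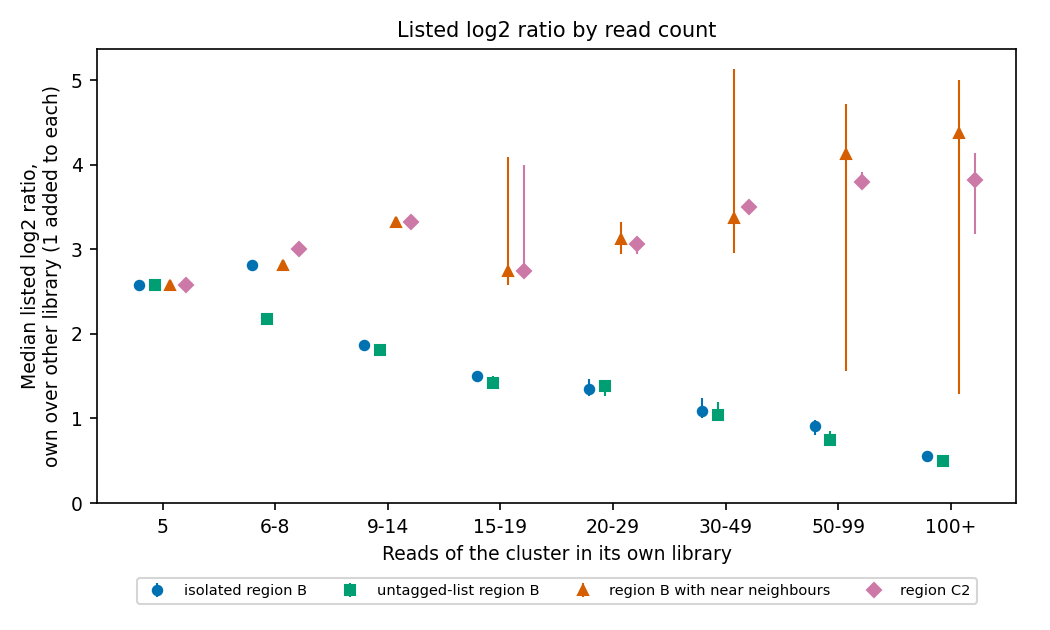
The median listed log2 ratio of own over other library, 1 added to each, is plotted by the reads of a cluster in its own library, with order-statistic 95% intervals as bars. From 9 reads upward isolated region B clusters (circles) and region B clusters of the untagged list (squares) fall together to 0.55 and 0.50 at 100 or more reads, while region C2 clusters (diamonds) lie at 3.82 there.

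The region B clusters of the untagged list, which hold untagged reads above tagged ones, had similar ratios in their own direction. Their medians were 1.39 (1.26 to 1.46) at 20 to 29 reads, 1.04 (1 to 1.19) at 30 to 49, 0.75 (0.67 to 0.85) at 50 to 99 and 0.50 (0.45 to 0.56) at 100 or more. The intervals overlapped those of the isolated tagged-list clusters in each of these 4 read ranges. Both lists have the same kind of listing limit, so equal ratios at equal reads are in part set by it: untagged-list region B clusters of 20 or more reads lay a median of 0.31 (0.28 to 0.36) above theirs.

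The shape of the read groups, which neither the listed ratio nor the distance rule uses, though the authors' region names may, set the isolated clusters apart from the other tagged-list clusters. In isolated region B clusters of 20 or more reads, a median of 94.3% of reads (92.3 to 95.5) lay at the single highest position. Over 75% lay there in 512 of the 676 (75.7%, interval 72.4 to 78.8), called stacked below, and all reads did in 203 (30%). At most 50% lay there in 48 (7.10%, interval 5.40 to 9.29), called spread. Whether a position counts read starts or the reads covering it is not stated, and neither is the treatment of PCR duplicates, whose part in the stacking was not tested.

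Region B clusters with near neighbours had the opposite shape. Of those with 20 or more reads, 6 of 104 (5.77%, interval 2.67 to 12) were stacked, a difference of 70.0 percentage points (Newcombe 95% interval 62.9 to 74.3). Region C2 clusters were stacked in 22 of 1133 cases (1.94%), 73.8 points fewer (70.3 to 76.9). Neighbouring clusters can share reads, which lowers the share at the highest position, and this was not tested. Region B clusters of the untagged list were stacked in 395 of 535 cases (73.8%, interval 69.9 to 77.4), and the difference from the isolated clusters, 1.91 points, had an interval of -2.98 to 6.87. No difference in stacking between these groups of clusters was thus detectable at 20 or more reads. The intervals treat clusters as separate observations from 1 library each.

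Small isolated clusters were less often stacked than small untagged-list ones. At 5 to 9 reads, 660 of 1613 isolated clusters (40.9%, interval 38.5 to 43.3) had over 75% of reads at the highest position, against 184 of 247 region B clusters of the untagged list (74.5%, 68.7 to 79.5), a difference of -33.6 points (-39.1 to -27.3). The same share was 117 of 2413 (4.85%) in region B clusters with near neighbours and 120 of 1946 (6.17%) in region C2. The isolated clusters of this size thus lay between both. The untagged-list clusters were not filtered by distance. Over all read counts their median gap was 1367420 nt, against 298039 nt for isolated clusters, so the spacing of these sets differed as well. At 5 reads 37.4% of isolated clusters were stacked (34.3 to 40.7), at 6 to 8 reads 40.4%, at 9 to 14 reads 66.7% (62.5 to 70.7) and at 15 to 19 reads 70.3%.

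**Figure D3:**
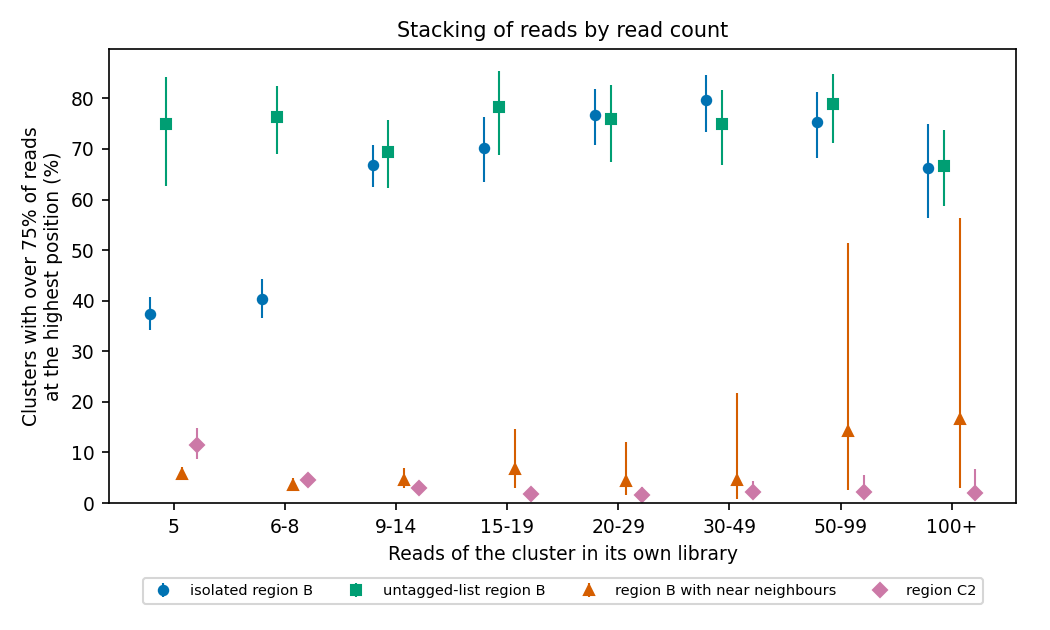
The percentage of clusters with over 75% of their reads at the highest position is plotted by the reads of a cluster in its own library, with Wilson 95% intervals as bars. Isolated region B clusters (circles) lie at 37.4% at 5 reads and overlap with the untagged-list region B clusters (squares) from 9 reads upward, while region B clusters with near neighbours (triangles) and region C2 clusters (diamonds) lie lower in every range.

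The other small isolated clusters included flat ones. For 199 of the 2860 (6.96%, interval 6.08 to 7.95) the authors listed no highest position and a count of 1 there, so that no position held more than 1 read. All 199 had 9 or fewer reads, where they made up 12.3% (10.8 to 14) of isolated clusters. Flat clusters of this size were 26.8% (25.0 to 28.6) of region B clusters with near neighbours, 0 of 1946 in region C2, and 1 of 247 in the untagged-list region B. Region C2 had none at any read count (0 of 4897). Whether that name requires a position with over 1 read is not stated. A further 147 isolated clusters (5.14%) had several positions tied for the highest count.

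The shape of small isolated clusters varied with how isolated they were. Among region B clusters of 5 to 9 reads, 11.5% (7.21 to 17.9, n = 139) were stacked at a gap of 1000 to 5000 nt to the nearest cluster, 30.9% (25.4 to 37.1, n = 236) at 5000 to 50000 nt, 40.5% (35.6 to 45.6, n = 363) at 50000 to 200000 nt and 48.5% (45.2 to 51.8, n = 875) beyond. Flat clusters went the other way, from 25.9% (19.3 to 33.8) at 1000 to 5000 nt to 8.23% (6.59 to 10.2) beyond 200000 nt. At a gap of 1000 to 5000 nt the flat share overlapped that of the region B clusters with near neighbours, 26.8%. The stacked share there, 11.5%, lay between their 4.85% and the values farther away. Isolation and read count also moved together: 8 of 161 clusters (4.97%, interval 2.54 to 9.50) had 20 or more reads at 1000 to 5000 nt, and 465 of 1718 (27.1%, interval 25.0 to 29.2) beyond 200000 nt, the chromosome Y cluster included.

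**Figure D4:**
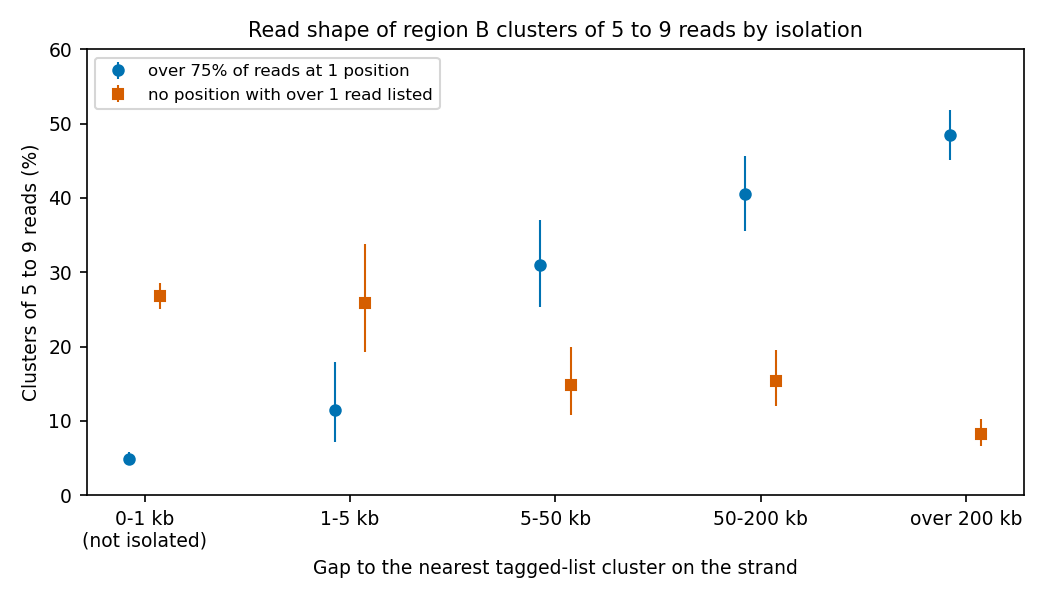
For region B clusters of 5 to 9 tagged reads, the percentage that was stacked (circles) and the percentage with no position above 1 read (squares) are plotted by the gap to the nearest tagged-list cluster on the strand, with Wilson 95% intervals. The stacked share goes from 4.85% in clusters that were not isolated to 48.5% beyond 200000 nt, and the flat share from 26.8% to 8.23%.

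Within the isolated clusters of 20 or more reads, shape and ratio were not closely tied. The 512 stacked clusters had a median log2 ratio of 1.07 (1 to 1.14), the 48 spread clusters one of 1.16 (0.94 to 1.55), and the 116 in between one of 1.06 (0.92 to 1.21). The share with a log2 ratio of at least 3 was 19 of 512 (3.71%, interval 2.39 to 5.72) among stacked and 4 of 48 (8.33%, interval 3.29 to 19.6) among spread clusters. These intervals overlap.

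The clusters with the most tagged reads differed little between the libraries. Coordinates are on mm9, counted from 1. The one with the most was chr17:26271532-26271557 (minus strand), with 468 tagged and 269 unscaled untagged reads. Its depth-adjusted ratio, tagged reads over untagged reads times the depth factor, was 1.16 with an exact 95% interval of 0.996 to 1.35, so that the interval included 1. The cluster chr8:110080741-110080766 (plus strand) had 435 against 204 reads, a ratio of 1.42 (1.20 to 1.69). The cluster chr2:134176219-134176244 (minus strand) had 360 against 173, a ratio of 1.39 (1.15 to 1.67), with 47.8% of reads at the highest position.

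The other clusters of this rank also had ratios under 2, with different shapes. The cluster chrX:11356978-11357003 (minus strand) had 343 tagged reads, 98.8% of them at 1 position, against 174. The cluster chr3:67000327-67000352 (plus strand) had 333 against 180, with 99.7% at 1 position. Their ratios were 1.31 (1.09 to 1.59) and 1.23 (1.03 to 1.49). The remaining 5 of the 10 were chr1:138261626-138261651, chr9:61725443-61725468, chr16:84456054-84456079, chr12:119230128-119230153 and chr2:47862718-47862743. They held 300 to 323 tagged reads, with ratios between 1.32 and 1.82. None of the 10 reached a ratio of 2. The highest was 1.82 (1.46 to 2.28), at chr2:47862718-47862743, and only the interval of the cluster with the most reads included 1.

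The lowest listed p values belonged to other clusters. The cluster chr6:69246620-69246645 (plus strand) had 214 tagged reads, 212 of them at 1 position, against 7 unscaled untagged reads. Its ratio was 20.4 (9.72 to 51.3), and its gap to the nearest cluster was 2009165 nt. It was the only isolated cluster of 100 or more reads with a log2 ratio of at least 3. The cluster chr14:36234654-36234679 (plus strand) had 277 reads, all at 1 position, against 51, a ratio of 3.62 (2.68 to 4.98).

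The third by listed p had its reads spread over several positions. The cluster chr16:48319200-48319225 (plus strand) had 68 tagged reads against 0. Only 8 of the 68 lay at each of 3 tied highest positions, 11.8% of the total. The exact 95% interval of its depth-adjusted ratio began at 12, the highest lower bound of all 2860. The nearest tagged-list cluster on the strand lay 1150993 nt away. A similar spread form was seen at chr14:22613407-22613432 (plus strand), with 41 reads against 0 and 9 at the highest position, and an interval that began at 7.08. That cluster lay 1882 nt from another.

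A few more clusters had many tagged and few untagged reads. The cluster chr8:42204184-42204209 (minus strand) had 79 tagged against 2 untagged reads, a ratio of 26.3 with a wide interval (7.05 to 221). The cluster chr18:4657211-4657236 (plus strand) had 83 against 3 (ratio 18.4, interval 6.09 to 91.2). The cluster chr14:55002240-55002265 (minus strand) had 66 against 2 (ratio 22.0, interval 5.85 to 185). In these 3, 74.7%, 54.2% and 54.5% of reads lay at the highest position. The cluster chr15:31525970-31525995 (plus strand) had 75 against 5 (ratio 9.99, interval 4.10 to 31.7) and chr15:87373704-87373729 (plus strand) had 119 against 21 (ratio 3.78, interval 2.36 to 6.32). The cluster chr8:90198532-90198557 (plus strand) had 68 against 5 (ratio 9.06, interval 3.70 to 28.8), with all 68 reads at 1 position.

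The remaining clusters among the 10 with the highest lower bounds each had 0 untagged reads. The cluster chr16:94690094-94690119 (plus strand) held 31 tagged reads, with an exact interval of the ratio from 5.27 upward. The cluster chr3:96898655-96898680 (plus strand) and chr7:60337294-60337319 (minus strand) held 29 reads each, all at 1 position, with intervals from 4.91 upward. The cluster chr17:11673744-11673769 (minus strand) held 27 reads, also at 1 position, with an interval from 4.55 upward. A high ratio was thus found in stacked and in spread clusters.

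**Figure D5:**
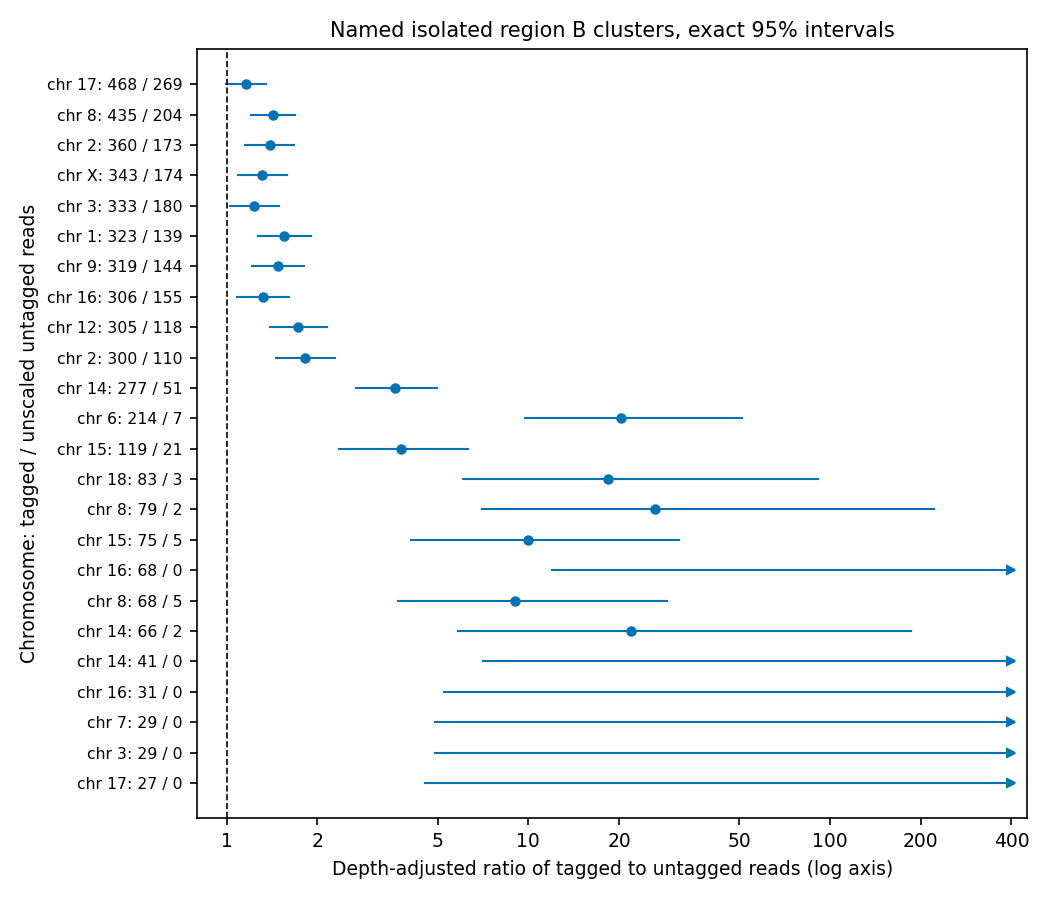
The depth-adjusted ratio of tagged to untagged reads (log axis) is plotted for the 24 isolated clusters named by lowest listed p, highest lower bound or most reads, labelled by chromosome, tagged reads and unscaled untagged reads. Dots are ratios, lines exact 95% intervals of counting error, arrows clusters with 0 untagged reads, and the dashed line marks 1. The 10 clusters of 300 or more reads lie between 1.16 and 1.82.

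Over all isolated clusters, a lower bound above 2 was reached by 93 (3.25%, interval 2.66 to 3.97) and above 4 by 12 (0.420%, interval 0.240 to 0.732). Of the 676 with 20 or more reads, 492 (72.8%, interval 69.3 to 76.0) had a lower bound above 1. These shares were not computed for the other tagged-list clusters, so whether they are high or low for the list was not tested. The list had been selected on tagged reads above untagged reads, so a lower bound above 1 partly restates that selection. With 0 untagged reads the lower bound is set by the tagged reads alone, so the shares over all isolated clusters partly restate read counts. The clusters at the edge of the listing had weaker values. The highest listed p, 0.0494, belonged to chr19:31233750-31233775 (minus strand), with 217 tagged against 122 untagged reads, a ratio of 1.19 (0.945 to 1.49). The 4 next to it held 33 to 38 reads, with ratios of 1.58 to 1.69 and lower bounds under 1.

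At the edge of the distance rule the clusters named on both sides were small. The 5 isolated clusters nearest to another cluster had gaps of 1003 to 1014 nt, 5 tagged reads and 0 untagged reads each. The 5 region B clusters just inside the limit had gaps of 989 to 998 nt, 5 to 7 tagged reads and 0 untagged reads. Those with gaps of 998 nt were each other's neighbours, as were those with gaps of 989 nt. Exactly 5 reads was a common count in both sets, at 30.8% of isolated and 43.5% of near-neighbour region B clusters. So few clusters therefore cannot show whether the sides were alike.

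Few tagged-list clusters of any kind lay near an untagged-list cluster. Within 1000 nt on the strand, 52 of all 11670 tagged-list clusters (0.446%, interval 0.340 to 0.584) had an untagged-list cluster, and within 10000 nt 150 (1.29%). Among isolated clusters, 1 of the 2860 (0.0350%) had one within 1000 nt, namely chr10:110602781-110602806 (minus strand), with 6 reads at 1 position. Within 10000 nt there were 18 (0.629%, interval 0.398 to 0.993). Among the 6 with a tagged-list cluster on the opposite strand within 1000 nt, a pair on chromosome 10 faced each other, at positions 126504101 to 126504126 on plus and 126504387 to 126504412 on minus, with 5 and 6 tagged reads. The largest of the 6 was chr2:72323214-72323239 (minus strand), with 30 reads, all at 1 position, against 6 unscaled untagged reads. These clusters were chosen for their position after the values were seen.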

How the data were processed

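The authors deposited 1 list of read clusters per library, each selected for enrichment over the other library, with positions on mm9 per the submitters' processing notes. For the aligner, the cluster caller and duplicate handling nothing is stated. The deposited lists have no header. From the values, each row the authors deposited holds an unnormalized count of reads at the highest position, the offset of that position, and own reads, a log2 ratio with 1 added to each side and a one-sided exact binomial p-value, joined. A position is listed 1-based here. For 24 of the 2860 clusters the 2 listed counts at the highest position differed, and the separate column was used.

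Untagged reads were recovered as the whole number that gave back the listed ratio (tolerance 0.006) and p (0.0001, or 0.001 in relative terms). This succeeded for 100% of tagged-list rows; 1 isolated cluster had several candidates, of which the closest p was taken. Each recovered number was 1 factor, of 1.5 to 1.502, times a whole number, rounded, and the midpoint, 1.501, was used as the depth factor, which is inferred. Unscaled untagged reads are these numbers divided by it. Total depth is unknown.

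Shares have Wilson 95% intervals, differences of shares Newcombe intervals, medians order-statistic intervals, and read ratios exact binomial (Clopper-Pearson) intervals divided by the depth factor. With 1 library per group no test between the groups was made. Recovery, the distance rule and the depth-aware test were tested on simulated data. Python 3.11.15, NumPy 2.4.6, pandas 2.3.3, SciPy 1.17.1 and matplotlib 3.10.9 were used.

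Clusters named were the 10 with the lowest listed p, the 10 with the highest lower bound, the 10 with the most reads, and the 5 at each edge of the rule. The gene lists and markers chosen for naming could not be applied without an annotation of the build. The clusters, lists and rules were chosen with earlier results of these data known. Alternatives covered the distance, the listed p, the strand or list of the neighbour, the minimum reads and the limit for stacking.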

Additional observations from a re-analysis of the deposited data

How the results depend on the processing

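Of 23 alternatives, 11 stayed within 1.5 times the count or the 95% interval of the share or median, and 12 moved beyond it. The number of isolated clusters was 3058 and 2699 with limits of 500 and 5000 nt, 2854 with neighbours of either strand and 2859 with those of either list. Taking only rows with a listed p of at most 0.01, for which fewer clusters enter by construction, gave 1162 clusters, a median log2 ratio of 2.81, 47.4% with 0 untagged reads and 100% under p 0.05 in the depth-aware test. The 100% also follows largely from the stricter listed p, since both p values rest on the same reads. The share with 0 untagged reads was 60.01% at a limit of 500 nt and 55.9% at 5000 nt. Requiring 20 or more reads gave a median log2 ratio of 1.07, 1.48% with 0 untagged reads and 88.2% under p 0.05 in the depth-aware test, as reported. The stacked share became 60.5% with over 90% of reads at 1 position, which is stricter by construction, and 71.9% with at least 10 reads. It stayed between 73.7% and 75.9% under the other distances and the listed p. The share with an untagged-list cluster nearby was 0.629% within 10000 nt. Causes were not tested beyond the construction of each alternative. Alternatives on gene overlap and base composition were not run, since no genome or annotation of mm9 was used here. No paired analysis was possible because there is 1 library a group. Depth limits what the small clusters show: up to 8 reads, a cluster has no measured fold.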
